A study of Homo sapiens with 6 samples.

Results

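TGFBI, BMP2 and SMAD3 are 3 genes of transforming growth factor beta (TGF-beta) and bone morphogenetic protein (BMP) signalling. They were chosen with earlier results of these data known. Their rows were taken by name in 4 RNA sequencing libraries of human cervical cancer cell lines. All 3 genes had rows in both deposited tables, as 5 RefSeq transcripts in each: 1 of TGFBI (chromosome 5), 1 of BMP2 (chromosome 20) and 3 of SMAD3 (chromosome 15). They stand among 8798 genes (15189 transcripts) in the ME-180 table and 9490 genes (16600 transcripts) in the SiHa table. The libraries were ME-180 with p63 knockdown (named shp63 in the labels), ME-180 control (plko), SiHa with p63 overexpression and SiHa with the vector. ME-180 and SiHa are established lines of cervical carcinoma, and both were kept with fetal bovine serum. The series of 6 samples also holds a p63 chromatin immunoprecipitation and its input from ME-180, which were not used here. Each group was 1 library, so no test of a condition was possible, and every interval below is an exact 95% interval that covers counting error only. The labels do not say whether a group was 1 clone or a mixed population.

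Ligands of the TGF-beta family bind pairs of serine/threonine kinase receptors, which phosphorylate SMAD proteins, and these enter the nucleus with SMAD4 and regulate transcription. SMAD3, like SMAD2, is the SMAD of TGF-beta and activin receptors, whereas SMAD1, SMAD5 and SMAD9 act below BMP receptors. BMP2 is a secreted BMP ligand. TGFBI is a secreted matrix protein that binds collagens and integrins and was named for its induction by TGF-beta. p63, encoded by TP63, is the transcription factor of the p53 family that maintains the basal layer of stratified epithelia, a tissue in which TGF-beta restrains growth.

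The stretches of 250 bases before annotated gene starts are shown because these genes were lower together in ME-180. They are RefSeq sequences of GRCh38.p14, on the plus strand, and 2 of the 3 genes, TGFBI and SMAD3, were matched by symbol in the table used. TGFBI has 1 window there and SMAD3 has 5, of which the first and the last along the chromosome are shown. Capitals mark GGCGCC, a GC-rich element that SMAD proteins can bind, CAGAC or its reverse complement GTCTG, the shorter SMAD element, and the p53-family half-site consensus, each searched on both strands.
TGFBI, chr5:136028738-136028987: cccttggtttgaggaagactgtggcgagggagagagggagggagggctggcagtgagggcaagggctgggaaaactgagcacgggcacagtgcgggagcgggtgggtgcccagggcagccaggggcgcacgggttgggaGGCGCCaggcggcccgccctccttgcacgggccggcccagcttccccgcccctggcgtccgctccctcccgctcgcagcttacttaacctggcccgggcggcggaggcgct
SMAD3 first start, chr15:67065352-67065601: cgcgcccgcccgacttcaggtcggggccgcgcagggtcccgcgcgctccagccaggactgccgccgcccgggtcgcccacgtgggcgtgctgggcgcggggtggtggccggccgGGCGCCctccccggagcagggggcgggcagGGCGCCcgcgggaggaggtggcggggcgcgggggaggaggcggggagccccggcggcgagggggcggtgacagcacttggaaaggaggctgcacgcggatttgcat
SMAD3 last start, chr15:67166281-67166530: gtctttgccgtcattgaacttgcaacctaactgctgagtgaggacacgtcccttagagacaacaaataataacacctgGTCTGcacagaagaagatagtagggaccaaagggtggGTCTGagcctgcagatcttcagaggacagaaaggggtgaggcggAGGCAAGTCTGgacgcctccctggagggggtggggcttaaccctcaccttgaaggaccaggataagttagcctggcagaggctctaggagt

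GGCGCC was found 1 time before TGFBI and 2 times before the first SMAD3 start, and 16.4% of 35116 promoter windows of the same length hold it. The G and C content was 72.8% for the TGFBI window, 80.8% for the first SMAD3 window and 53.6% for the last, with 44.8% to 52.8% in the other SMAD3 windows, against a median of 58.0% over all windows. The last SMAD3 window held 3 copies of CAGAC, which 38.0% of windows hold, and 1 p53-family half-site, which 5.57% hold, and the half-site overlaps 1 of those copies. Of the SMAD3 windows not shown, 1 held a single CAGAC and a single half-site. A match gives letters only and shows no binding. The files do not tie the deposited SMAD3 transcripts to these starts.

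TP63 was read first, as a check of the labels. Over its 5 transcripts it had 0 to 6 counts in the ME-180 library labelled knockdown, against 393 to 5619 in the ME-180 control. In SiHa the 5 transcripts had 95 to 179 counts with overexpression, against 0 to 8 with the vector. The ME-180 pair differed across the table: 48.9% of 6783 genes with at least 1 CPM (counts per 1000000 counts of the table) in either library differed at least 2-fold. The SiHa pair was close, with 1.32% of 6996 genes past 2-fold. The tables held 10046579 counts for the ME-180 knockdown library, 10804272 for the ME-180 control, 13690639 for SiHa overexpression and 14207637 for the SiHa vector, and these are sums of the rows used, not sequencing depths. The ME-180 table has no row for some widely expressed genes, such as ITGB1 and JUNB, so a CPM here is relative to the listed rows.

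Keratins that mark epithelial cells were low in the same ME-180 library. The 4 of 7 epithelial markers with a row (KRT5, KRT14, KRT8 and KRT18) summed to 158 CPM in the knockdown library and 69902 CPM in the control, and all 4 were lower. Of 9 fibroblast markers, 7 had a row and summed to 172.5 CPM in the knockdown library, against 135 in the control. Of the 5 that reached 1 CPM, 3 were higher (FBN1, COL3A1 and PDGFRB, the last at 0 in the control) and 1, COL1A1, was lower, with 52.2 CPM in the knockdown library, against 127 in the control. Endothelial markers (3 of 4 with a row) summed to 1.89 CPM in the knockdown library, against 13.6 in the control, with CDH5 at 0 in the knockdown library and KDR at 0 in the control. Most of that control sum was VWF, at 13.5 CPM, against 0.697 CPM in the knockdown library. KDR went the other way, with 12 counts in the knockdown library. Immune markers (4 of 6) summed to 5.08 CPM in the knockdown library, against 51.7 in the control, with CD3E at 0 in the knockdown library and LYZ at 0 in the control. Most of that control sum was CD68, at 50.4 CPM, against 3.78 CPM in the knockdown library. LYZ went the other way, with 10 counts in the knockdown library. In SiHa the 6 epithelial markers with a row summed to 4656 CPM with overexpression and 2538 with the vector, and 3 of 6 were higher. Fibroblast markers summed there to 27.7 CPM with overexpression and 38.1 with the vector, endothelial ones to 10.9 with overexpression and 12.1 with the vector, and immune ones to 137 with overexpression and 126 with the vector. None of these sums differed 2-fold, and with 1 CPM added none of their genes that reached 1 CPM did. Without that addition LUM, at 40 counts with overexpression, against 14 with the vector, had a ratio of 2.97 (1.58 to 5.90). Genes under 1 CPM in both libraries, such as KDR and VWF, were not called. The part of these marker shifts in the results below was not tested. Each library is of a cell line, so these sums describe marker genes and do not show that such cell types were present. In such bulk RNA, fewer cells of a type and less RNA per cell cannot be told apart.

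All 3 genes were lower in the ME-180 library labelled knockdown than in the control, TGFBI and BMP2 to a few counts and SMAD3 by about an order of magnitude. TGFBI had 4 counts in the knockdown library, against 6200 in the control. That is 0.398 CPM (0.108 to 1.02) in the knockdown library and 574 CPM (559.7 to 588) in the control, a 1441-fold lower level (563 to 5292). BMP2 also had 4 counts in the knockdown library, against 2151 in the control. Its level was 0.398 CPM (0.108 to 1.02) in the knockdown library and 199 CPM (191 to 208) in the control, 500.04-fold lower (195 to 1837). The count intervals of both genes were far from overlapping, and at 4 counts the size of each fold is known only within about an order of magnitude.

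SMAD3 stayed readily detected in both ME-180 libraries. Its transcript NM_001145102.1 had 204 counts in the knockdown library, against 2355 in the control, or 20.3 CPM (17.6 to 23.3) against 218 CPM (209 to 227). This is a 10.7-fold lower level (9.30 to 12.4). NM_001145103.1 had 201 counts in the knockdown library, against 2246 in the control, 10.4-fold lower (8.99 to 12.1). NM_001145104.1 had 178 counts in the knockdown library, against 2136 in the control, 11.2-fold lower (9.57 to 13.1). The 3 intervals overlap, but rows that can share reads cannot show whether the transcripts differed in their ratio. Each made up between 30.5% and 35.0% of the summed SMAD3 rows in all 4 libraries. Other RefSeq transcripts of SMAD3 had no row and were not analysed here, so these shares and levels cover 3 transcripts and not the whole gene. Reads can enter several of these rows, so they are not independent measurements of SMAD3. The RefSeq table lists the antisense gene SMAD3-AS1 as overlapping SMAD3, and where counting ignores strand, reads of the pair cannot be told apart.

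**Figure D1:**
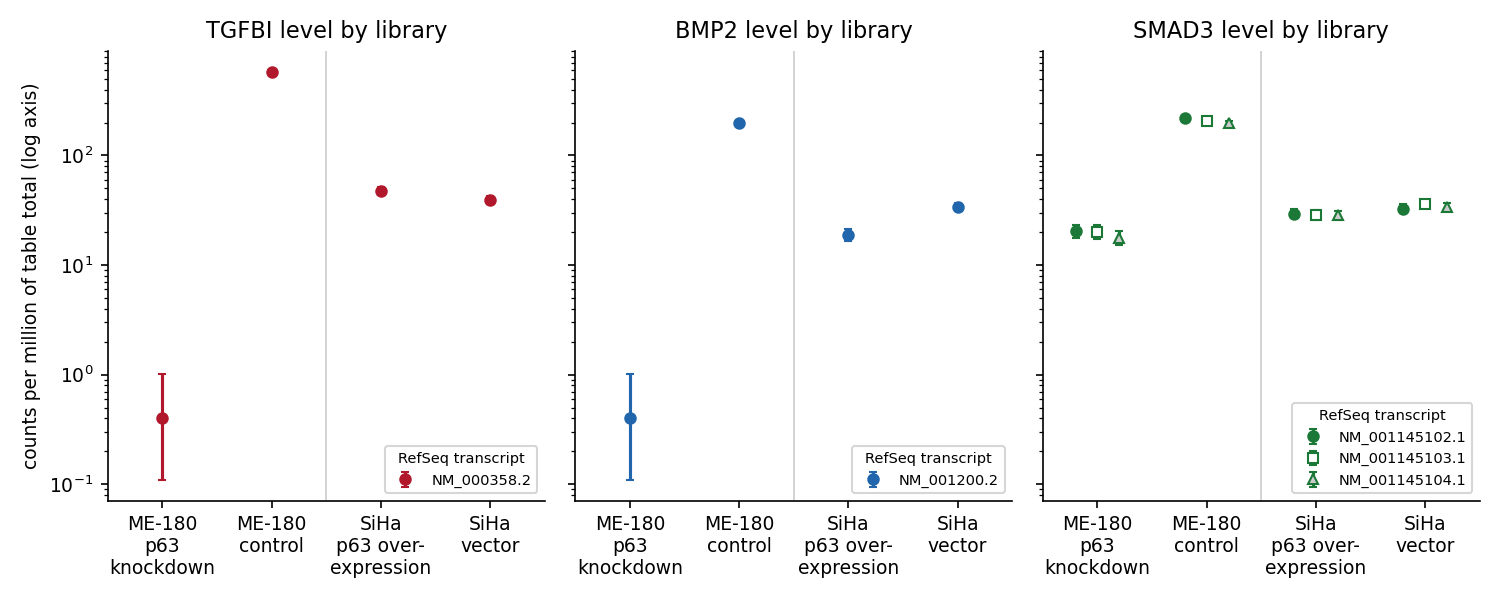
Level of each RefSeq transcript of TGFBI, BMP2 and SMAD3 in the 4 libraries, in CPM of the table total on a log axis; points are single libraries and bars are exact 95% Poisson intervals. TGFBI and BMP2 sit at 0.398 CPM in the ME-180 knockdown library, while SMAD3 stays between 17.7 and 20.3 CPM there, and the ME-180 control is the highest library for all 3 genes.

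Set against all genes of the ME-180 table, TGFBI had the 11th lowest log2 ratio of 6783 genes, BMP2 the 39th lowest and SMAD3 the 299th lowest. These log2 ratios, taken of CPM plus 1, were -8.68 for TGFBI, -7.16 for BMP2 and -3.36 for SMAD3, against a median of 0.28 over all genes. All 3 of 3 genes were at least 2-fold lower, where 20.6% of all genes were. The genes were chosen with earlier results of these data known, so ranks and shares here are a description only. All 3 genes, each by the row that stood for it, had an interval wholly below 1. Of all genes, 34.5% had such an interval, while 50.8% had one wholly above 1. In the authors' deposited table the log2 fold changes were -10.77 for TGFBI and -9.24 for BMP2, and between -3.80 and -3.70 for the SMAD3 transcripts. The adjusted p-values in the authors' deposited table were 9.14e-51 for TGFBI, 5.32e-40 for BMP2 and 9.32e-15 to 3.38e-14 for SMAD3. No spread between replicates lies behind them.

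In SiHa, where p63 was raised, none of the 3 genes reached 2-fold, and they did not share a direction. TGFBI had 655 counts with overexpression, against 555 with the vector, or 47.8 CPM (44.2 to 51.7) against 39.1 CPM (35.9 to 42.5), a ratio of 1.22 (1.09 to 1.37). BMP2 had 259 counts with overexpression, against 482 with the vector, or 18.9 CPM (16.7 to 21.4) against 33.9 CPM (31.0 to 37.1), a ratio of 0.558 (0.478 to 0.65). The ligand was thus lower in the overexpression library and the matrix gene slightly higher, each beyond counting error. An interval wholly above 1 was found for 14.7% of the 6996 SiHa genes and one wholly below 1 for 23.8%, so such an interval is common in this pair.

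SMAD3 was close in the SiHa libraries. NM_001145102.1 had 403 counts with overexpression, against 466 with the vector, a ratio of 0.897 (0.783 to 1.03). NM_001145103.1 had 393 counts with overexpression, against 510 with the vector, a ratio of 0.80 (0.699 to 0.914). NM_001145104.1 had 388 counts with overexpression, against 481 with the vector, a ratio of 0.837 (0.73 to 0.959). All 3 ratios lay below 1, and the interval of the first includes 1. By log2 ratio, BMP2 at -0.81 was the 141st lowest of 6996 genes, SMAD3 at -0.31 the 1195th lowest (its NM_001145103.1 row, the highest in SiHa) and TGFBI at 0.29 the 628th highest, against a median of -0.05. The shares of all SiHa genes at least 2-fold higher and lower were 0.572% and 0.743%. In the authors' deposited table the adjusted p was 1 for all 5 transcripts, and the log2 fold changes were 0.33 for TGFBI, -0.80 for BMP2 and between -0.28 and -0.12 for SMAD3.

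**Figure D2:**
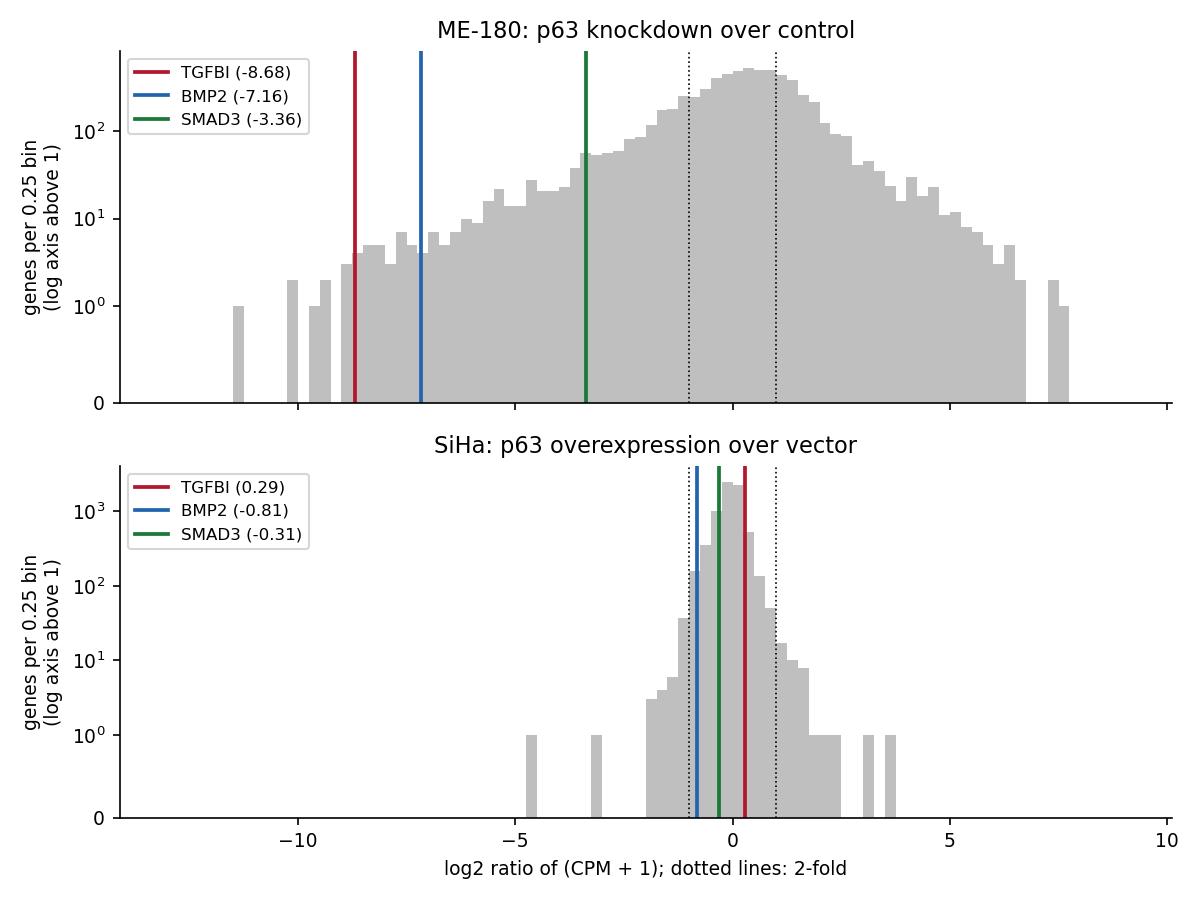
Distribution over all genes tested of the log2 ratio of CPM plus 1, knockdown over control in ME-180 (top, 6783 genes) and overexpression over vector in SiHa (bottom, 6996 genes), with genes per bin of 0.25 on an axis that is logarithmic above 1. Coloured lines mark the 3 genes and dotted lines mark 2-fold: all 3 lie left of the lower line in ME-180, and none lies beyond either line in SiHa.

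Across the 4 libraries the order of levels differed between the genes below the ME-180 control, which was highest for each. The tables were scaled separately, so levels set across lines are a description. TGFBI was next highest with SiHa overexpression, then the SiHa vector, then the ME-180 knockdown library. BMP2 and all 3 SMAD3 transcripts were next highest in the SiHa vector, then SiHa overexpression, then the ME-180 knockdown library. Of neighbours in these orders, the intervals overlap for SMAD3 NM_001145102.1 and NM_001145104.1 between the SiHa libraries, and none of the others do. How such gaps compare with the spread between cultures is not known from 1 library per group.

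The ME-180 control exceeded the SiHa vector 14.7-fold for TGFBI (13.5 to 16.1), 5.87-fold for BMP2 (5.31 to 6.49) and 6.65-fold for SMAD3 NM_001145102.1 (6.01 to 7.36). With totals taken over the 13206 transcripts found in both tables, these were 10.2-fold, 4.08-fold and 4.62-fold. The ME-180 knockdown library lay 98.1-fold below the SiHa vector for TGFBI (38.1 to 361), 85.2-fold below it for BMP2 (33.1 to 314) and 1.62-fold below it for SMAD3 NM_001145102.1 (1.37 to 1.91). The other SMAD3 transcripts lay 1.79-fold (1.52 to 2.12) and 1.91-fold (1.61 to 2.28) below it. With totals of the shared transcripts the gaps were 141-fold for TGFBI, 123-fold for BMP2 and 2.33-fold to 2.75-fold for SMAD3. TGFBI and BMP2 in the knockdown library were therefore far under SiHa cells, whose TP63 counts with the vector were also near 0, and SMAD3 was below them by a smaller factor under both scalings.

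Other genes of the pathway were read from 9 lists of 147 genes by role, and 62 of 77 with a row in ME-180 reached 1 CPM there. Of these 62, 19 were at least 2-fold higher in the knockdown library and 22 lower, that is 30.6% and 35.5%, where 28.2% and 20.6% of all genes were. With TGFBI, BMP2 and SMAD3 set aside, 19 were higher and 19 lower of 59 (median log2 ratio -0.09, against 0.28 for all genes). Scaling by trimmed means, which lowers the median of all genes by 0.28, gave 14 higher and 23 lower of the full set, so higher genes were 46.3% of those past 2-fold by table totals and 37.8% by trimmed means. Over all genes these shares were 57.8% by table totals and 47.4% by trimmed means. Listed genes with no row were not read as absent, among them SMAD4, ID1, ID2, ID3 and BMPR1A in ME-180.

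Of 26 listed ligands, 12 had a row in ME-180 and 9 reached 1 CPM. Of these 9, 7 were lower in the knockdown library, BMP2 and BMP1 included, and 1 was higher (median log2 ratio -1.44). That is 77.8% lower and 11.1% higher, where 20.6% and 28.2% of all genes were. The 14 ligands without a row, BMP6 and BMP7 among them, could not be read. TGFB2, a TGF-beta ligand, had 12 counts in the knockdown library, against 139 in the control, 10.8-fold lower (5.97 to 21.3). BMP1, a protease that carries the BMP name and processes procollagens, was 4.70-fold lower (4.07 to 5.45), and BMP3 4.35-fold lower (2.81 to 6.998). These folds were small beside that of BMP2. Of genes of ligand storage and activation, 3 of 7 were lower and 2 higher (median -0.73), that is 42.9% and 28.6%, beside the same shares of all genes. LTBP1, which anchors latent TGF-beta in the matrix, was 5.08-fold lower (4.33 to 5.98), and ITGB6, a subunit of an integrin that activates TGF-beta, had 2 counts in the knockdown library, against 159 in the control, 73.9-fold lower (20.1 to 616). ITGAV, its partner subunit and a subunit of integrins that bind TGFBI, had 441 counts in the knockdown library, against 1234 in the control. FBN1, fibrillin 1, which holds latent TGF-beta complexes and is also among the fibroblast markers, was 20.0-fold higher (15.1 to 26.8).

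Receptors were mostly higher by table totals. Of 12, 7 were higher and 2 lower, that is 58.3% and 16.7%, where 28.2% and 20.6% of all genes were. Their median was 1.09, against 0.28 for all genes. By trimmed means 3 of 11 were higher and 2 lower, with a median of 0.93, against 0.002 for all genes. With that scaling 22.0% of all genes were higher and 24.4% lower, so the receptor count was near that of all genes while the receptor median was above theirs. ACVR2B, an activin receptor, had 1468 counts in the knockdown library, against 266 in the control, 5.94-fold higher (5.20 to 6.79), and the BMP co-receptor RGMB was 2.39-fold higher (2.10 to 2.73). TGFBR1, the type I receptor for TGF-beta, was 2.34-fold lower (2.14 to 2.57), and ENG, the co-receptor endoglin, 8.31-fold lower (5.02 to 14.6). TGFBR2, the type II receptor for TGF-beta, singled out after its values were seen, had 69 counts in the knockdown library, against 0 in the control, at least 19.6-fold higher by the lower 95% limit of the ratio.

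Among the SMADs, SMAD3 was the 1 gene at least 2-fold lower of 5 with a row. SMAD9 was the 1 higher, at 633 counts in the knockdown library, against 211 in the control, 3.23-fold (2.76 to 3.79). SMAD1 had 313 counts in the knockdown library, against 306 in the control, and SMAD5 had 845 against 813. SMAD2, the closest relative of SMAD3 in its role, had 493 counts in the knockdown library, against 567 in the control, at a log2 ratio of -0.09. The median over the 5 SMADs was 0.13 by table totals and -0.14 by trimmed means. Over all genes 28.2% were higher and 20.6% lower by table totals. The intracellular inhibitors and cofactors, with a median of 0.12 by table totals and -0.16 by trimmed means, had 1 of 9 higher and 1 lower: USP9X, a deubiquitinase that acts on SMAD4, was 3.25-fold higher (3.10 to 3.41), and NEDD4L, a ubiquitin ligase for activated SMADs, 4.06-fold lower (3.04 to 5.52). Of 4 extracellular antagonists past 1 CPM, 1 was higher and 1 lower (median -0.01). The lower one was FST, follistatin, which binds activins, at 10 counts in the knockdown library, against 238 in the control, 22.1-fold lower (11.8 to 46.7).

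Genes known as TGF-beta targets went both ways in ME-180. Of 36 listed, 13 had no row there, VIM, SNAI1 and SNAI2 among them, and 22 reached 1 CPM. Of these 22, 9 were lower, TGFBI among them, and 6 higher (median -0.50, and -0.75 by trimmed means). That is 40.9% lower and 27.3% higher, where 20.6% and 28.2% of all genes were, so the higher share was near that of all genes. ANGPTL4, a secreted regulator of lipoprotein lipase, had 7 counts in the knockdown library, against 223 in the control. It was singled out after its values were seen. ZEB1 and ZEB2, repressors of epithelial genes, were among the higher ones, each at 1 count in the control. ZEB1 had 179 counts in the knockdown library, a ratio of 192.5 (34.1 to 7645), and ZEB2 had 223, a ratio of 240 (42.6 to 9514). SMAD7, a feedback inhibitor that TGF-beta and BMP induce, was within 2-fold at a log2 ratio of -0.35. The BMP target list had 2 of 12 genes with a row in ME-180, SMAD9 and SMAD7, and the list of TGFBI relatives and partners had 1 gene past 1 CPM of 5 with a row, ITGAV. POSTN, periostin, the relative of TGFBI, had 5 counts in the knockdown library, against 0 in the control, under 1 CPM in both, and is given as a count only.

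**Figure D3:**
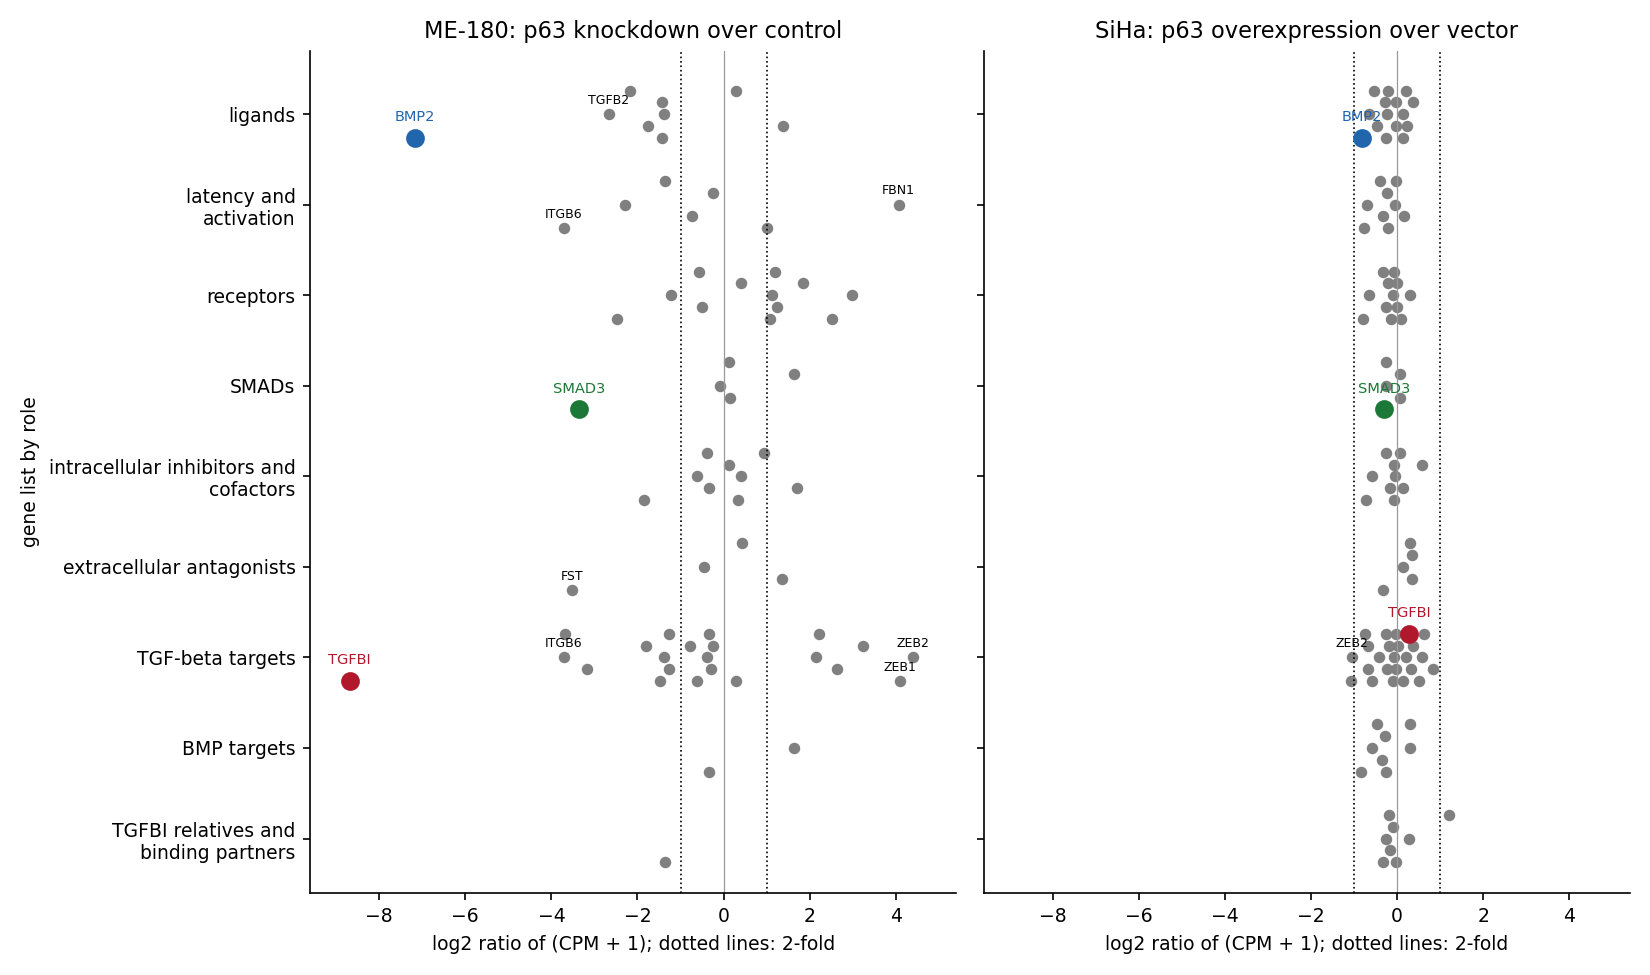
Log2 ratios of CPM plus 1 for genes of the 9 role lists that reached 1 CPM, 1 point per gene and list, for knockdown over control in ME-180 (left) and overexpression over vector in SiHa (right); vertical position within a row only separates points, dotted lines mark 2-fold, and TGFBI, BMP2 and SMAD3 are coloured, with labels on them and on some of the other genes named by rule. In ME-180 the 3 coloured genes lie left of -3 while other genes fall on both sides, and in SiHa nearly all points lie within 2-fold.

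In SiHa the pathway lists moved little, as did the table as a whole. Of 109 genes with a row, 86 reached 1 CPM, and 1 was at least 2-fold higher and 2 lower, or 1.16% and 2.33%, where 0.572% and 0.743% of all genes were. The 3 were POSTN, with 20 counts under overexpression, against 1 with the vector (a ratio of 20.8, 3.32 to 860.3), FN1, fibronectin, with 33 against 87 (0.394, 0.255 to 0.594), and ZEB2, with 49 against 120. POSTN and FN1 lie outside the rule for named genes and were named after their values were seen. With a pseudocount of 5 CPM, 0 pathway genes were past 2-fold in SiHa. The medians by list ran from -0.32 for BMP targets to 0.30 for extracellular antagonists. Ligands and receptors each had 0 genes past 2-fold, of 15 and 12. BMP2 had the lowest log2 ratio of the 15 ligands, followed by AMH at -0.65 with 180 counts under overexpression, against 302 with the vector. ID1 and ID3, targets of BMP signalling, were at log2 ratios of 0.29 and 0.30, and ID4 and ID2 at -0.83 and -0.46, so these relatives did not share a direction. ID1 and ID3 were also named after their values were seen.

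Of the other 19 pathway genes lower in the ME-180 knockdown library, 15 reached 1 CPM in SiHa, and 7 of these lay above 0 and 8 below with overexpression. Of the 19 that were higher, 16 reached 1 CPM in SiHa, and 4 lay above 0 and 12 below, FN1 and ZEB2 among the 12. Over all SiHa genes 42.6% lay above 0 and 57.4% below.

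The genes whose pattern over the 4 libraries lay nearest to each of the 3 were found by Euclidean distance between values of log2(CPM + 1) centred on each gene's mean, over the 5064 genes that had a row in both tables and reached 100 counts somewhere. Nearest to TGFBI was IGFBP3, which binds insulin-like growth factors, at a distance of 0.27, with 7 counts in the ME-180 knockdown library, 7718 in the ME-180 control, 978 with SiHa overexpression and 832 with the vector. The epithelial transcription factors ELF3 (0.54) and EHF (0.60) followed, both at 0 counts in the ME-180 knockdown library. Nearest to BMP2 were SPINT1, a serine protease inhibitor (0.78), ANXA1, an annexin (0.81), and PTGS1, a prostaglandin synthase (0.87). Nearest to SMAD3 were ITGA6, an integrin subunit (0.15), SSTR5, a somatostatin receptor (0.16), and PHLDB2 (0.17). ITGA6 had 505 counts in the ME-180 knockdown library, 5506 in the ME-180 control, 859 with SiHa overexpression and 1100 with the vector. SSTR5 had 4, 139, 17 and 19 counts in the same order. At such low levels the added 1 CPM narrows its differences, so its nearness to SMAD3 depends on that setting. BMP2 lay 1.33 from TGFBI, and SMAD3 lay 3.24 from BMP2 and 4.15 from TGFBI, so TGFBI and BMP2 were more alike in pattern than either was to SMAD3.

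**Figure D4:**
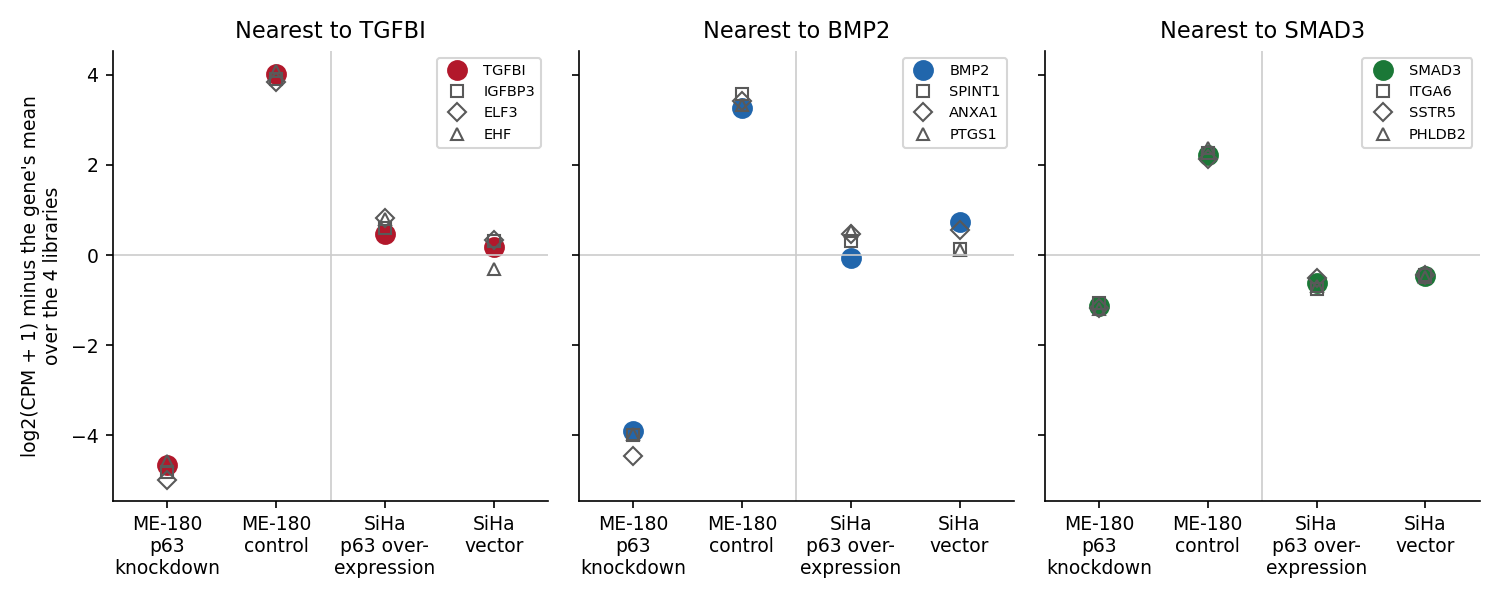
Centred values of log2(CPM + 1) over the 4 libraries for TGFBI, BMP2 and SMAD3 (filled circles) and the 3 nearest genes of each (open symbols); 1 point per library and gene, with the tables scaled separately. TGFBI and BMP2 span a wider range between the ME-180 knockdown and control libraries than SMAD3 does, and in the SiHa overexpression library the 3 nearest genes of BMP2 all lie above it.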

How the data were processed

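RNA was measured in 4 libraries, grouped by genotype as the labels give it, and no group has a replicate. The submitters' processing notes name TopHat, Cufflinks, DESeq2 and hg19, with no roles; neither how reads were counted nor the strand setting is stated there. The authors deposited whole-number counts per RefSeq transcript, with a log2 fold change and p-values, per the file headers. Rows at 0 in both libraries of a table are not listed. A missing row was still not read as 0. ITGB1, JUNB and ID1 have no row in ME-180, and had 4564, 6493 and 19773 counts in the SiHa vector library. Why such rows are missing is not known. Counts were scaled to CPM by the table's total. Where a gene had several rows, the row with the largest CPM over both libraries stood for it. Log2 ratios used CPM with a pseudocount of 1 added, which understates low genes. A gene was called at 2-fold with at least 1 CPM in a library. No p-value was computed; p-values shown are the authors' deposited ones. Intervals are exact (Poisson for counts, conditional binomial for ratios; scipy 1.17.1), and a fold against a count of 0 is given by its 95% limit.

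The members, gene lists and rules were chosen with earlier results of these data known. Named pathway genes are up to 4 per list with the largest ratio among those with at least 100 counts. Alternatives used edgeR 4.0.16 (TMM) and DESeq2 1.42.0 (size factors). On simulated counts with 100 genes raised and 100 lowered 4-fold, drawn from genes with a mean of at least 5 CPM, 100 were called in each direction in both comparisons, with 4 unchanged genes called in ME-180 and 0 in SiHa. The simulated counts held counting error only, with no spread between cultures. They check the calling steps and give no rate of false calls for these libraries. The notes name hg19 as the one build and the RefSeq gene table is in GRCh38.p14, so peaks were not placed beside the genes. Without transcript lengths, levels of different genes were not compared.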

Additional observations from a re-analysis of the deposited data

How the results depend on the processing

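The direction of all 3 genes was the same under each alternative run in both lines. With a pseudocount of 5 CPM the ME-180 log2 ratios were -6.74 for TGFBI, -5.24 for BMP2 and -3.14 for SMAD3. SMAD3 was at -3.64 by trimmed means (TMM) and -3.63 by DESeq2 size factors. With a floor of 100 counts, 12 pathway genes were higher and 19 lower in ME-180, of 48 tested, and with a pseudocount of 5 CPM 13 were higher and 19 lower. In SiHa the counts of 1 higher and 2 lower pathway genes became 2 and 3 at a pseudocount of 0.1 CPM and 0 and 0 at 5 CPM. They were 0 and 1 with the mean over transcripts, and 0 and 1 with the floor of 100 counts. Of the 86 genes tested in SiHa, 66 entered under that floor, and 84 were tested with the mean over transcripts. A larger pseudocount pulls ratios of low genes towards 1. Beyond this the cause was not tested. The log2 ratios of the ME-180 control over the SiHa vector, 3.88 for TGFBI, 2.55 for BMP2 and 2.73 for SMAD3, were 3.35, 2.03 and 2.21 with totals of the rows in both tables, an alternative chosen after seeing the data. No paired analysis was possible because each group holds 1 library, and no library could be left out for the same reason. Precision at 4 counts limits the TGFBI and BMP2 folds in ME-180.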

Other observations

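Neighbouring protein-coding genes, taken from the order in the RefSeq gene table, had rows in part. SMAD5, the next gene after TGFBI on chromosome 5, had 845 counts in the ME-180 knockdown library, against 813 in the control, a ratio of 1.12 (1.01 to 1.23). In SiHa SMAD5 had 428 counts with overexpression, against 538 with the vector, a ratio of 0.825 (0.725 to 0.94). IQCH, which follows SMAD3 on chromosome 15 after AAGAB, had 206 counts in the ME-180 knockdown library, against 127 in the control, a ratio of 1.74 (1.39 to 2.19). In SiHa IQCH had 18 counts with overexpression, against 48 with the vector, a ratio of 0.389 (0.213 to 0.681). These 2 neighbours with at least 10 counts in each library were within 2-fold in the ME-180 pair, where TGFBI and SMAD3 were past it. Over all genes of that pair 48.9% were past 2-fold, so 2 genes within it say little about the region. In the SiHa pair IQCH was past 2-fold by its ratio of counts and SMAD3 was within it. AAGAB and SMAD6, also beside SMAD3, had no row. BMP2 had no neighbour with that many counts.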
